A study of Mus musculus with 6 samples.

Results

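Ptf1a, Pax2, Tfap2a, Tfap2b, Lhx1, Lhx5, Skor2 and Foxp2 are 8 transcription factor and corepressor genes that act in the GABAergic neurons of the cerebellum. They were taken by gene name from a table of 43629 genes, and each name matched 1 row. RNA was sequenced in 3 medulloblastomas that carried both Math1-Cre and the SmoM2 allele (SmoM2.c/wt) and in 3 cerebella that carried SmoM2.c/wt without the Cre. SmoM2 encodes a constitutively active Smoothened, the signal transducer of the Hedgehog pathway, and Math1-Cre acts in the lineage of the Math1 (Atoh1) gene, which includes the granule neuron progenitors. Every sample was from a female C57BL/6 mouse at postnatal day 35, with littermates as controls per the series' design text. The labels do not state that numbered libraries of a group came from different mice, and p-values then describe only the spread among the libraries, possibly technical.

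GABAergic cerebellar neurons arise in the ventricular zone, where the helix-loop-helix factor Ptf1a, which acts with the Notch pathway factor Rbpj, specifies them. Their descendants are the Purkinje cells and the inhibitory interneurons. Granule neurons, in contrast, are glutamatergic and come from progenitors of the rhombic lip that express Atoh1. Purkinje cell differentiation uses the LIM homeodomain factors Lhx1 and Lhx5, the corepressor Skor2 and the forkhead factor Foxp2, while interneuron precursors use the paired-domain factor Pax2 and the AP-2 factors Tfap2a and Tfap2b.

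The factors did not move as a block. Lhx1 and Foxp2 rose in the tumors, by 2.61-fold and 2.94-fold. Pax2, Tfap2a, Tfap2b, Lhx5 and Skor2 fell, by 6.97-fold to 12.4-fold. Ptf1a was at the limit of detection in both groups. Of the 7 genes tested, 2 were called higher and 5 lower by limma with Benjamini-Hochberg adjustment over 22117 genes. Among all genes tested, 30.6% were called higher and 31.5% lower, so a call alone does not set these genes apart. The groups did not overlap for any of the 7, as for 67.7% of all genes tested. Their median log2 fold change was -3.07, against -0.02 over all genes tested. Values are normalized counts, which are read counts divided by 1 size factor per library, and log2 fold changes are on the log2(value + 1) scale. In whole tissue, fewer cells of a type and less RNA per cell cannot be told apart.

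**Figure D1:**
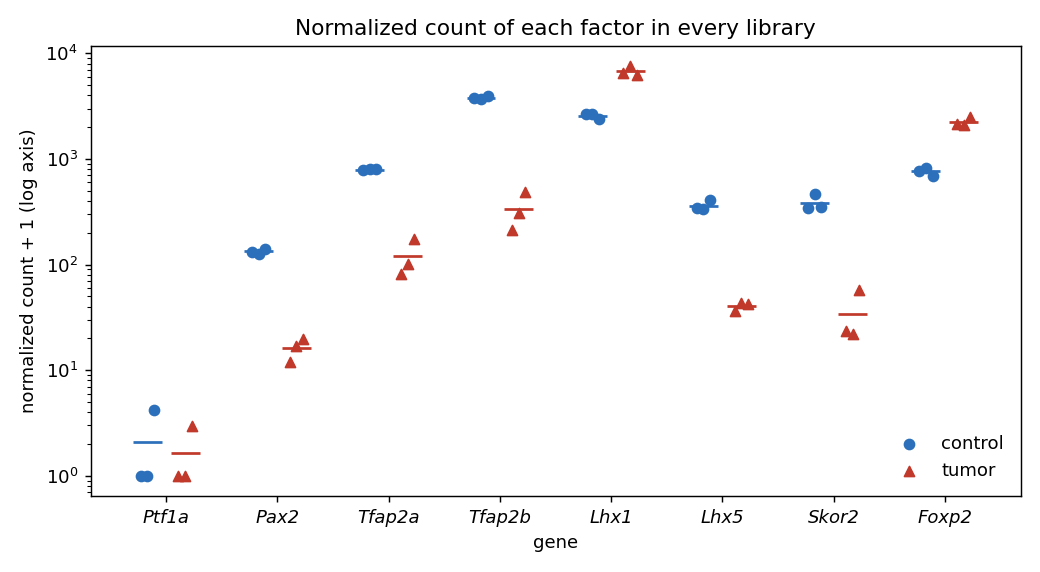
Normalized count plus 1 (log axis) of the 8 genes in each of the 3 control (circles) and 3 tumor (triangles) libraries, with a line at each group mean. Lhx1 and Foxp2 lay higher in all 3 tumors, Ptf1a was at or near 0 in every library, and the other 5 genes lay lower in all 3 tumors.

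Total recovered reads ran from 44902217 to 69550200 per library. The tissue labels were checked on defining genes. Calb1, the Purkinje cell calcium buffer calbindin, stood at 91023 ± 4181 (SD, n = 3) normalized counts in control and 9250 ± 3904 in tumor, and Atoh1 at 5.88 ± 5.41 and 4361 ± 422. Of 12 choroid plexus markers, all but Clic6 were lowest in tumor 3 among the tumors. Ttr, a thyroid hormone carrier of that epithelium, read 231 there against 20585 and 16889.7, while Clic6, a chloride channel gene, read 1927 against 1819 and 1353.

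Ptf1a (ENSMUSG00000026735, mm10 chromosome 2, 19445663 to 19447501) had 3 reads in the controls together and 2 in the tumors. All 3 control reads were in control 3 (3.21 normalized counts) and both tumor reads in tumor 3 (1.97 normalized counts), with 0 in the other libraries. A floor of 3 counts per library equals 2.17 to 3.57 normalized counts and covers counting error only, so no difference was detectable at this depth and no fold is given. It missed the filter of a value over 1 in at least 3 libraries. The gene encodes the earliest factor of the series, which is known to be switched off as the precursors leave the ventricular zone. Its antisense gene Ptf1aos had 0 reads in every library.

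Among the factors of the Purkinje lineage, Lhx1 and Foxp2 went one way and Lhx5 and Skor2 the other. Lhx1 (ENSMUSG00000018698, chromosome 11, 84518284 to 84525535, minus strand) read 2639.8, 2672 and 2403 normalized counts in controls 1 to 3 and 6492, 7516 and 6178 in tumors 1 to 3. The lowest tumor was above the highest control by a wide margin. The mean rose from 2571 ± 147 to 6729 ± 699.8 (SD, n = 3 each), a log2 fold change of 1.38 ± 0.09 SE (adjusted p = 9.71e-07, limma). Lhx5 (ENSMUSG00000029595, chromosome 5, 120431770 to 120441223, plus strand), its closest relative among the LIM homeodomain genes and a partner in Purkinje cell differentiation, read 342, 336 and 405 in the controls and 35.4, 42.5 and 41.3 in the tumors. All tumors were far below all controls and close to each other. Its log2 fold change was -3.15 ± 0.21 SE (8.88-fold lower, adjusted p = 7.95e-07, limma).

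Skor2 (ENSMUSG00000091519, chromosome 18, 76856405 to 76900342), a SKI-family corepressor of postmitotic Purkinje cells, read 344, 461 and 349 in the controls and 22.4, 20.8 and 56.1 in the tumors. Tumor 3 was higher than the other tumors but still far below every control. The log2 fold change was -3.63 ± 0.37 SE (12.4-fold lower, adjusted p = 1.47e-05, limma), and -4.08 without tumor replicate 3. Foxp2 (ENSMUSG00000029563, chromosome 6, 14901349 to 15441977), which Purkinje cells keep expressing as they mature, read 774, 811 and 694 in the controls and 2148, 2086 and 2470.4 in the tumors. Every tumor exceeded every control. Its mean rose from 759.6 ± 59.8 to 2235 ± 206, a log2 fold change of 1.55 ± 0.11 SE (adjusted p = 9.72e-07, limma).

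The interneuron factors all fell. Pax2 (ENSMUSG00000004231, chromosome 19, 44756045 to 44837871), which marks interneuron precursors, read 132, 126 and 140.1 in the controls and 10.8, 16.1 and 18.7 in the tumors. The tumor values rest on 15, 17 and 19 reads and lie far below the controls. The log2 fold change was -3.07 ± 0.32 SE (8.43-fold lower, adjusted p = 1.68e-05, limma).

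Tfap2b (ENSMUSG00000025927, chromosome 1, 19208914 to 19238576), an AP-2 factor that helps fix the GABAergic fate, read 3771, 3705 and 3939 in the controls and 209, 309 and 487 in the tumors. Tfap2a (ENSMUSG00000021359, chromosome 13, 40715675 to 40733823), its paralog, read 777, 794 and 794 in the controls and 80.2, 101 and 174 in the tumors. In both genes the controls were tightly grouped, and tumor 3 was the highest tumor and tumor 1 the lowest. The log2 fold change was -3.59 ± 0.24 SE for Tfap2b (12.0-fold lower, adjusted p = 9.41e-07, limma). For Tfap2a it was -2.80 ± 0.25 SE (6.97-fold lower, adjusted p = 6.89e-06, limma). The fall of Tfap2a was smaller by 0.78 on the log2 scale. The log2 difference of Tfap2a and Tfap2b was -2.31 to -2.22 in the controls and -1.60 to -1.37 in the tumors, without overlap. The exact two-sided permutation p was 0.1, the smallest that 3 against 3 allows, and 0.167 after adjustment over 5 pairs chosen after the values were seen.

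The rise of Foxp2 was compared with each other factor as a difference of log2 values within a library. On this scale the change of Foxp2 exceeded that of Pax2 by 4.63, of Lhx5 by 4.71, of Tfap2a by 4.36, of Tfap2b by 5.14 and of Skor2 by 5.19. The control and tumor differences did not overlap for these 5 pairs, each with an exact two-sided permutation p of 0.1 (0.117 adjusted over 7 pairs, which include Ptf1a at its floor). Against Lhx1 the change of Foxp2 differed by 0.17, and here the tumor libraries (-1.85 to -1.32) enclosed the control libraries (-1.79 to -1.72), with an exact p of 0.4. Lhx1 against its paralog Lhx5 gave 4.54, from 2.56 to 2.99 in the controls and 7.19 to 7.48 in the tumors (exact p = 0.1, 0.12 adjusted over 6 pairs chosen after the values were seen).

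Levels of different genes were set side by side per kilobase of merged exon in the GENCODE M21 annotation. In control, Lhx1 (631 ± 36.1 normalized counts per kilobase) and Tfap2b (600.3 ± 19.1) were highest, and their libraries overlapped. Tfap2a (161 ± 2.02), Lhx5 (134 ± 14.2) and Skor2 (122 ± 21.2) followed, of which Lhx5 and Skor2 overlapped, then Foxp2 (46.5 ± 3.66) and Pax2 (24.5 ± 1.31). In tumor the order of levels per kilobase was Lhx1 (1652 ± 172), Foxp2 (137 ± 12.6), Tfap2b (52.9 ± 22.2), Tfap2a (24.2 ± 10.1), Lhx5 (14.8 ± 1.42), Skor2 (10.5 ± 6.34) and Pax2 (2.81 ± 0.74). Foxp2 passed from sixth to second place. The tumor libraries of Tfap2b overlapped those of Tfap2a, and those of Skor2 overlapped both Tfap2a and Lhx5.

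The genes beside the factors were examined because the library kit is unstranded in its standard form and no source used here states how strand entered the counting, so reads of overlapping genes cannot be told apart. Lhx1 lies head to head with the long noncoding RNA gene Lhx1os (chromosome 11, 84525660 to 84535831, plus strand), with 124 bases between the 2 gene models. Lhx1os read 1987, 1622 and 1877 normalized counts in the controls and 1946, 1709 and 1603 in the tumors. The groups overlapped, and the log2 fold change of -0.06 (95% interval -0.31 to 0.19) did not pass (adjusted p = 0.66, limma). The log2 difference of Lhx1 and Lhx1os was 0.36 to 0.72 in the controls and 1.74 to 2.14 in the tumors, without overlap (exact p = 0.1, 0.167 adjusted over 5 pairs). The gene downstream, Aatf, which encodes an RNA polymerase II-binding protein, rose 1.78-fold (adjusted p = 3.4e-05, limma).

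The promoter window of Lhx1 is shown because it holds the whole stretch between these divergent genes, of which one rose and the other did not pass. It covers chr11:84525485-84525784 of GRCm38.p6, read on the minus strand from 250 bases before to 50 bases after the RefSeq start of Lhx1. Capitals mark the 124 bases between the gene models.
Lhx1: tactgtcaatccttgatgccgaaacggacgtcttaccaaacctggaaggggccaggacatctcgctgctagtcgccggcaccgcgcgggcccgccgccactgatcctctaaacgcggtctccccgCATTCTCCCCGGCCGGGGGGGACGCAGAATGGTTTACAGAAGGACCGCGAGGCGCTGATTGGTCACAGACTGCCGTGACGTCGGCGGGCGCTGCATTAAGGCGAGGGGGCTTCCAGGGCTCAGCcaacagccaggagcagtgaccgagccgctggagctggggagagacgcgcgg

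Windows of this kind in RefSeq were taken for 5 of the 8 genes, with none taken for Foxp2, Lhx5 or Skor2. They were searched on both strands for GCCNNNGGC (AP-2 factors), CAGCTG (an E-box of helix-loop-helix factors such as Atoh1 and Ptf1a), TGGGAA (Rbpj), TAATTA (LIM homeodomain factors), TGTTTAC (forkhead factors) and CACCCA (the core letters of GLI sites). Among 32544 distinct windows of the same length these occurred in 16.7%, 16.4%, 25.4%, 5.29%, 3.66% and 22.3%. The windows of Lhx1 and Tfap2b, one of those of Tfap2a and one of those of Pax2 held no match to any of the 6. The window of Ptf1a held 1 AP-2 match at position 19 from the start site and 1 Rbpj match at -169. The other Tfap2a window held an Rbpj match at -13 and a LIM match at -32, and a further Pax2 window an Rbpj match at -149 and a GLI match at 31. One of 3 windows of Pax2 held 2 AP-2 matches, at positions -108 and 41, and 1 E-box at -64. It is shown because it held the most matches of these windows. The window is chr19:44755502-44755801 on the plus strand, with AP-2 and E-box letters in capitals, and a match is a description of letters only.
Pax2: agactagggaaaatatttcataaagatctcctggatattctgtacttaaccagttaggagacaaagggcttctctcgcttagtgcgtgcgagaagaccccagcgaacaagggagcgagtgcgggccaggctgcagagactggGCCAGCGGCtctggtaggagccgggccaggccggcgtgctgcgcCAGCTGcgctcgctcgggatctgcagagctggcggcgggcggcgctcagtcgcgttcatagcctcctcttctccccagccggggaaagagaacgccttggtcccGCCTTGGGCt

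At the Lhx5 locus, the antisense gene Gm27199 (chromosome 5, 120419659 to 120431741, minus strand) lies head to head with Lhx5. There are 28 bases between the 2 gene models. Gm27199 fell with Lhx5, from 194, 204 and 170.0 normalized counts in the controls to 7.22, 21.7 and 34.4 in the tumors (log2 fold change -3.34, adjusted p = 0.00019, limma). Gm26688, which overlaps Tfap2a on the other strand, fell from 56 reads over the controls to 6 over the tumors (log2 fold change -3.27, adjusted p = 0.00188, limma). Tfap2a itself had 2107 and 395 reads. The antisense genes and the microRNA genes that overlap Pax2 and Foxp2 had 0 reads in every library. Gm28340, 4148 bases from Tfap2b, had 1 read in the controls and 0 in the tumors.

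**Figure D2:**
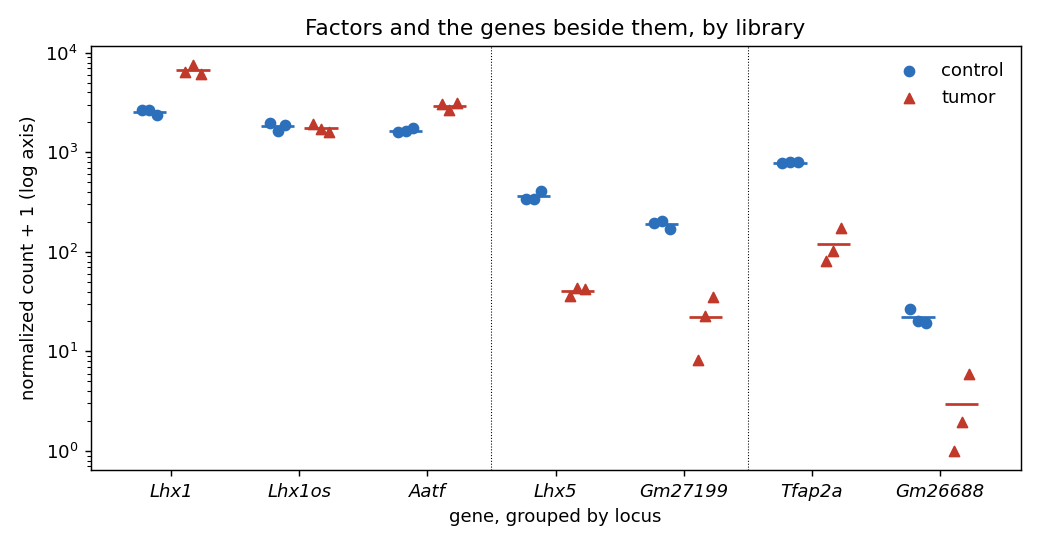
Normalized count plus 1 (log axis) of Lhx1, Lhx5 and Tfap2a and of genes beside or across them, in 3 control (circles) and 3 tumor (triangles) libraries, with group means as lines. Lhx1os shows overlapping groups beside the rise of Lhx1, while Gm27199 and Gm26688 lie lower in all tumors, as Lhx5 and Tfap2a do.

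The markers of the mature cells that these factors help to form fell. Of 14 markers of GABAergic interneurons, 14 fell (median log2 fold change -2.53), where 31.5% of all genes tested were called lower and 30.6% higher. Slc6a5, the glycine transporter gene of Golgi cells, fell 10.97-fold, from 1955 ± 272 to 182 ± 56.8 normalized counts, and Gad2, which encodes a GABA-synthesizing enzyme, fell 10.04-fold. The smallest falls were those of the neuropeptide gene Npy (2.41-fold) and of Nrgn, which encodes the calmodulin-binding protein neurogranin (2.15-fold, adjusted p = 0.0483, limma). The call of Nrgn was lost in 10 of 16 alternatives, with an adjusted p of up to 0.141 without control replicate 1, and that of Sst, the somatostatin gene, without any 1 control library or tumor replicate 2 (0.052 to 0.0917). Among 17 markers of Purkinje cells, 15 fell and 2 rose (median -3.11). Calb1 and Arhgef33 each fell 10.4-fold. The rises were those of Ebf1 (2.17-fold, 3324 ± 72.6 to 7208 ± 59.1) and Ebf2 (1.85-fold, 946 ± 69.3 to 1755 ± 143), which encode helix-loop-helix factors of developing neurons. Lhx1 and Foxp2 thus lay with these 2 transcription factor genes, and Lhx5 and Skor2 with the other 15 markers, in direction. Those 15 include another transcription factor gene, Rora, which fell 6.42-fold, from 28591 ± 1104 to 4601 ± 1504.

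Regulators that act before or beside the 8 factors were mixed. Of 19 such genes, 17 were tested, 8 rose, 4 fell and 5 did not pass, with a median log2 fold change of 0.51. Over all genes tested, 30.6% were called higher and 31.5% lower. Rbpj, the partner of Ptf1a and effector of Notch, rose 2.60-fold from 1940.2 ± 52.7 to 5056 ± 512 normalized counts. Ldb1, the cofactor that LIM homeodomain proteins bind, rose 1.73-fold from 2793 ± 76.3 to 4909.7 ± 1141. Olig3, a helix-loop-helix factor of dorsal hindbrain progenitors, had 4 control reads and 1281 tumor reads, with a tumor mean of 367 ± 91.0 normalized counts. Prdm13, which in the spinal cord acts downstream of Ptf1a, read 342, 18.0 and 386 in tumors 1 to 3. Its controls held 3 reads together, and the ratio of 228 had an exact 95% interval of 77.7 to 1107 for counting error. Tumor 2 stood far below the other tumors for this gene. The falls were those of Neurog2 and Gata2, which act in neuronal precursors, at 8.14-fold and 2.60-fold, of the homeobox gene Nkx2-2 at 1.66-fold and of the nuclear receptor gene Rorb at 1.32-fold. Of these, Neurog2 rests on 52 and 8 reads. The call of Gata2 was lost without control replicate 2 or 3 or tumor replicate 1 (0.0549 to 0.113), and that of Rorb without control replicate 1 or 2 (0.0773 and 0.0559). That of Nkx2-2 was lost without control replicate 1 or 3 or tumor replicate 2 or 3 (0.0776 to 0.141), with scaling to library totals (0.075) and by edgeR's quasi-likelihood test (0.0511). The count of falls was 2 without control replicate 1, 2 or 3 and 3 without any of the tumors.

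Paralogs of the 8 factors were split as well. Of 19 such genes, 16 were tested, 8 were called higher, 5 lower and 3 did not pass. The shares over all genes tested were 30.6% higher and 31.5% lower. Skor1, the paralog of Skor2, fell 9.85-fold from 481 ± 30.3 to 52.7 ± 28.3 normalized counts. Foxp1, the paralog of Foxp2, rose 2.19-fold from 1166 ± 41.3 to 2551 ± 37.3. Among LIM homeodomain genes, Lhx2 rose from 5.40 ± 4.63 to 684 ± 139 and Isl1 from 8.34 ± 6.67 to 801 ± 208, with 14 and 22 control reads in all. Both are best known from forebrain, sensory and motor neurons. Lmx1a, a roof plate and unipolar brush cell gene, fell 5.69-fold, Lmx1b 5.80-fold, Lhx9 4.07-fold and Lhx6 6.82-fold. The call of Lhx9 was lost without control replicate 2 (adjusted p = 0.0776) or 3 (0.0663). The list's median log2 fold change was 0.46, and -0.10 with Lhx4 and Tfap2c, which had 0 control reads, set at their bound against the floor. Many of these genes had few reads, and 3 were called in each direction when more than 1 CPM in 3 libraries was required.

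**Figure D3:**
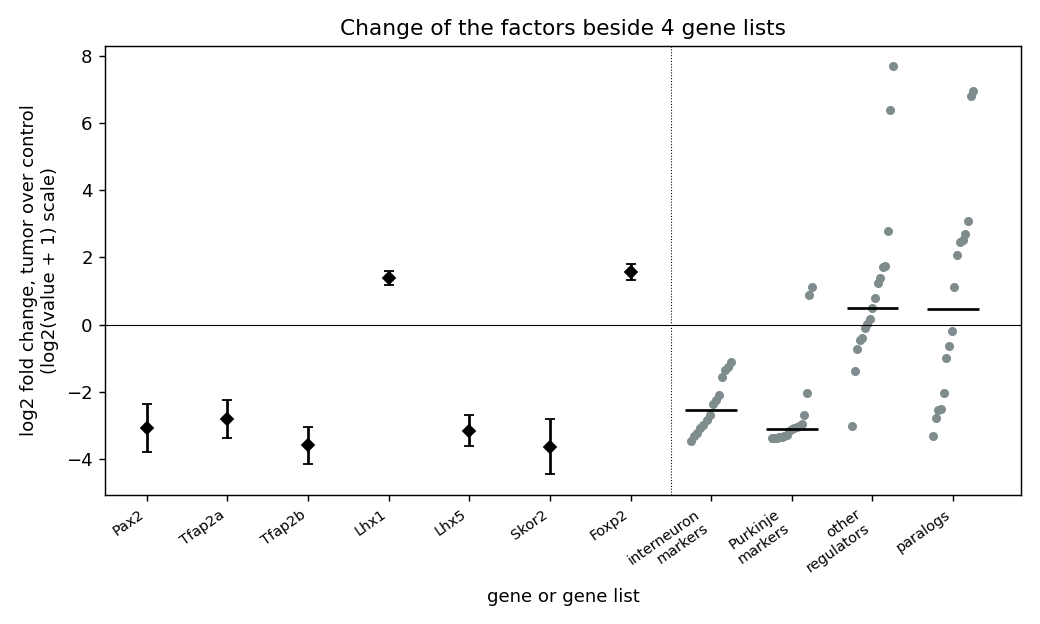
Log2 fold change of tumor over control on the log2(value + 1) scale for the 7 tested factors (diamonds, bars are 95% intervals from limma) and for every tested gene of 4 lists (dots, line at the median). Lhx1 and Foxp2 lie above 0 and the other 5 factors below it, from -2.80 for Tfap2a to -3.63 for Skor2, beside medians of -2.53 for the interneuron and -3.11 for the Purkinje markers, and the median of the paralogs changes sign to -0.10 with 2 genes at their bound.

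The level left in each tumor differed between the factors. Tumor 1 kept 8.17%, 10.2%, 5.50%, 9.80% and 5.82% of the control mean for Pax2, Tfap2a, Tfap2b, Lhx5 and Skor2. Tumor 2 kept 12.1%, 12.8%, 8.12%, 11.8% and 5.41%, and tumor 3 kept 14.1%, 22.1%, 12.8%, 11.4% and 14.6%. Tumor 3 was thus the highest tumor for 4 of these 5 genes, Lhx5 being the exception. Among all genes called lower, 50.4% were highest in tumor 3. The median over the Purkinje markers was 9.23%, 10.7% and 15.8% in tumors 1 to 3, and over the interneuron markers 12.7%, 15.4% and 20.3%.

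**Figure D4:**
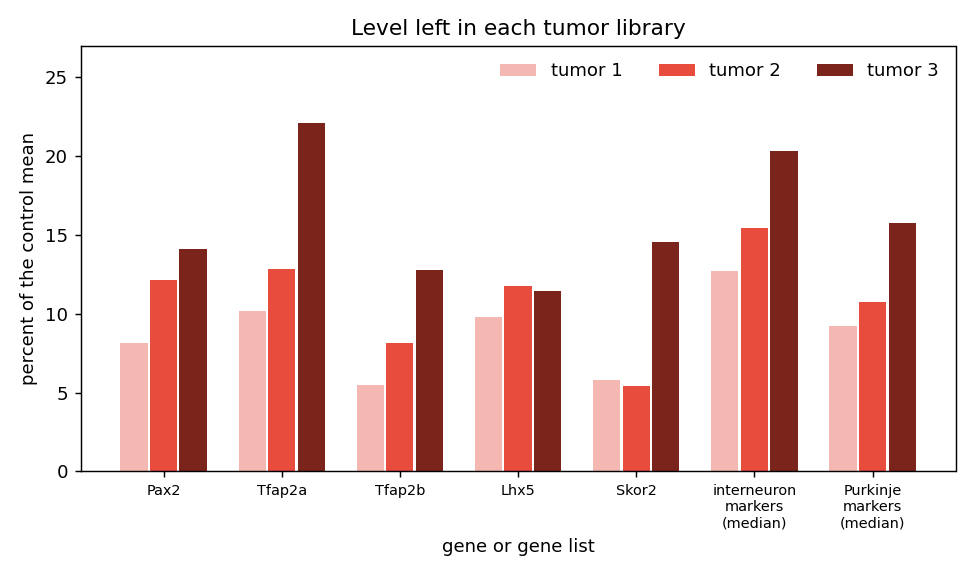
Level in each tumor library as a percent of the mean of the 3 controls, for the 5 factors that fell and for the medians of 14 interneuron and 17 Purkinje cell markers. Tumor 3 has the tallest bar in every group except Lhx5, where tumor 2 (11.8%) and tumor 3 (11.4%) are close.

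Lists of markers of other cells moved in different directions. Their counts stand beside 30.6% called higher and 31.5% called lower among all genes tested. Of 13 granule neuron progenitor markers, 12 rose beside Lhx1 and Foxp2, and their summed level was 74253 to 83023 normalized counts in the controls and 256726 to 276171 in the tumors. Zic1, a zinc finger factor gene and the marker that did not pass, made up 54195 ± 4332 and 55734 ± 3309 of these sums, and the list's median log2 fold change was 4.90. Of 9 markers of glutamatergic cerebellar nuclei and unipolar brush cells, 4 rose and 4 fell, with sums of 4719 to 5565 and 12547 to 14575 and a median log2 fold change of -0.16. Pou4f1, a POU factor gene of this list, rose from 11.4 ± 7.84 to 2216 ± 265. The largest parts of the tumor sums were Slc17a6 (2164 ± 423 to 5540 ± 394) and Otx2 (1238 ± 67.1 to 4433 ± 860), which is also on the choroid plexus list. Eomes fell from 1025 ± 151 to 290 ± 26.2 and Meis2 from 356 ± 76.4 to 110 ± 35.8, beside Lhx9 and Lmx1a. The 12 markers of mature granule neurons were all called lower, with sums of 324871 to 365582 in control and 49379 to 66864 in tumor. That list's median log2 fold change was -2.91, within the range of the 5 factors that fell (-2.80 for Tfap2a to -3.63 for Skor2). AP-2 genes are also used in meninges and the neural crest. Of 13 markers of meningeal fibroblasts, 9 fell and 2 rose, with sums of 49550.1 to 61559 in control and 19488 to 22671 in tumor. Ptgds, which encodes prostaglandin D2 synthase, alone fell from 33002 ± 3805 to 4305 ± 918, and the list's median log2 fold change was -0.70. Called higher were Col3a1 (1481 ± 204 to 2295 ± 337) and Aldh1a2 (695 ± 45.8 to 1172 ± 180), while Col1a1 and Lum did not pass. Of 7 melanocyte markers, 5 were tested and 4 fell, with sums of 1099.9 to 1191 and 474 to 627, and the defining marker Tyr had 0 reads in all libraries. Of 12 choroid plexus markers, 10 fell and Otx2 rose, with sums of 76384 to 132449.9 in control and 6109.6 to 29531 in tumor. That list's median log2 fold change was -3.61, and Kcne2 was at 0 in tumor 3. Without control replicate 2 the calls of Ttr (adjusted p = 0.0615, limma) and Kcne2 (0.061) were lost, as they were without control replicate 3 (0.0604 and 0.059). The call of Kcne2 was also lost with a pseudocount of 0.1 (adjusted p = 0.0576, limma) and by DESeq2 (0.0833). The part of these cell types in the changes of the 8 factors was not tested.

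The genes with the profile nearest to each factor over the 6 libraries were sought among 13271 genes, by Euclidean distance of log2 values centred on the gene mean. For Lhx1 they were Yeats2 (distance 0.11) and Ogfr (0.12), and for Foxp2 Atm (0.09) and Zdhhc15 (0.12). For Pax2 they were Pcp2 (0.10), a Purkinje cell marker, and Pcnxl2 (0.14). Tfap2a was nearest to Trpc7 (0.16) and Nrsn2 (0.17), and Tfap2b to Hapln4 (0.28) and Syt2 (0.295). Lhx5 was nearest to Faah (0.31) and Cacna1i (0.31), and Skor2 to the progesterone receptor gene Pgr (0.29) and the synaptic gene Unc13c (0.31). The 6 libraries fall in 2 groups, so the group difference enters every distance.

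The authors' deposited table of all genes gave folds of 2.62 for Lhx1 and 2.94 for Foxp2 and of 0.115, 0.150, 0.0881, 0.110 and 0.0860 for Pax2, Tfap2a, Tfap2b, Lhx5 and Skor2. The authors' deposited table of 2654 selected genes held the 5 factors that fell, with log2 fold changes of -2.37 for Tfap2a to -3.46 for Skor2 and FDR values of 0.0214 to 0.0356. For the same 5 genes the authors' deposited table of all genes gave FDR values of 4.56e-123 for Tfap2b to 5.82e-18 for Pax2. No source used here names the test behind either table. The smallest absolute log2 fold change in the table of 2654 selected genes was 1.62, and Lhx1, Foxp2 and Ptf1a were not among those genes.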

How the data were processed

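RNA was extracted with TRIzol and a column cleanup and made into TruSeq v2 libraries, per the labels' protocols. FastQC, Bowtie2 2.2.4, featureCounts, edgeR and mm10 stand in the submitters' processing notes without role or order. The sources used here give neither the annotation release nor the use of strand. Each deposited signal is a gene's read count over its library's size factor (0.841 to 1.38): 100% of values were whole multiples of 1 read to within 1e-06 of their size. The ratio (fold), log2 fold change, p-value and FDR columns are the authors', per the file headers, and entered no test here.

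Samples were grouped by title. The 22117 genes with values above 1 in 3 or more libraries were tested with limma 3.58.1 (R 4.3.3) and a mean-variance trend on log2(value + 1), which understates changes of low genes, with Benjamini-Hochberg adjustment and a threshold of 0.05. On the recovered reads, edgeR 4.0.16 (quasi-likelihood) called 6800 genes higher and 6611 lower, against 6761 and 6977 by limma, and DESeq2 1.42.0 was another alternative. No replicate pair agreed within sampling noise (chi-square per degree of freedom at least 10.9). The members and lists were chosen with earlier results of these data known. Named genes are all 8 factors, up to 4 genes per list by largest and smallest change among those called, the genes called against a list's majority, the 2 nearest profiles per factor among genes with a mean of at least 50, and genes within 5000 bases. Rbpj, Ldb1, Skor1, Foxp1, Tfap2c, Lhx4 and a few others were named after their values were seen. One further gene list is not reported here. The exact interval of the Prdm13 ratio and the floors cover counting error only. Intervals from limma rest on the spread among libraries.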

Additional observations from a re-analysis of the deposited data

How the results depend on the processing

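Across 16 alternatives, 2 of the factors were called higher and 5 lower in each, and no log2 fold change of a factor reversed. The differences between Foxp2 and each other factor did not reverse in the 13 alternatives run for them (11 for Ptf1a), and those of the other pairs were not recomputed. The log2 fold changes of Lhx1 ran from 1.27 to 1.48, of Foxp2 from 1.44 to 1.65, of Pax2 from -3.23 to -2.79, of Lhx5 from -3.26 to -3.03, of Tfap2a from -3.12 to -2.56, of Tfap2b from -3.90 to -3.29 and of Skor2 from -4.08 to -3.39. Upper-quartile scaling shifted the median of all genes by -0.11. With more than 1 CPM required in 3 libraries, fewer genes are tested: 3 paralogs were called higher and 3 lower and 1 melanocyte marker lower. With a library left out, the other regulators called lower numbered 2 to 3. The replicate block changed no call of a factor and gave 6744 genes higher and 6943 lower. Same-numbered libraries did not deviate together (correlations of 0.02, -0.05 and -0.01). Low correlations over 3 libraries per group cannot exclude a pairing, so whether the numbers pair the samples is not known. Exact tests of 3 against 3 cannot go below 0.1, and Ptf1a is limited by depth.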
